A study of Rattus norvegicus with 4 samples.

Results

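Transcripts of 10 genes of the Wnt signalling pathway were examined in 4 rat mammary cancers that arose after carbon-ion irradiation. The genes were the ligands Wnt1, Wnt5a and Wnt5b, the receptors Fzd1, Fzd2 and Lrp6, the secreted inhibitor Sfrp1, the signal carrier Ctnnb1 and the pathway targets Axin2 and Lef1. Wnt4 was not part of the set. The members were all probe sets (groups of short oligonucleotides that report 1 transcript) whose platform annotation named only 1 of these genes, which gave 16 of the 31099 probe sets on the array. The 10 genes are part of 14217 that the array names, 7 of them had 1 probe set and 3 had several.

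The tumours came from female Sprague-Dawley rats, an outbred stock, that received a single whole-body exposure to 0.5 Gy of carbon ions (290 MeV/u, a densely ionising beam, with a spread-out Bragg peak of 6 cm) at 7 weeks of age. From an age of 9 weeks the animals ate an AIN-76A diet with 23.5% corn oil, a high-fat feed. All 4 cancers belong to 1 group, each was hybridised to 1 array, and the labels do not state whether they came from separate animals. Unirradiated or differently fed rats and healthy gland were not analysed here, and what irradiation or diet did to these genes cannot be read from the values. The design allows a comparison of the individual tumours only. With 1 array per tumour such a comparison has no replicate check, and no test was run apart from a ratio that marks single outlying values. Differences are therefore described by their size and set beside the same measure over all genes.

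Wnt proteins are secreted, lipid-bearing ligands that bind Frizzled receptors. Together with the co-receptors Lrp5 and Lrp6 they protect beta-catenin, the product of Ctnnb1, from breakdown, and beta-catenin then acts with the transcription factors Lef1 and Tcf7 on target genes such as Axin2, which feeds back to limit the signal. Wnt5a and Wnt5b act mainly through routes that do not use beta-catenin. Wnt1 is the classical oncogene of mouse mammary tumour virus insertions, and secreted Frizzled-related proteins such as Sfrp1 bind Wnt ligands outside the cell.

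Values are log2(signal + 16), so a difference of 1 is 2-fold for bright probe sets and understates the change of dim ones. A gene was called expressed when its mean over the 4 tumours reached 7.81 log2, the level of the median probe set, which is a signal of about 209. Where a gene had several probe sets, the one with the highest mean stands for it. All 10 genes passed this filter, and 15 of the 16 probe sets did. Levels are compared between tumours for 1 probe set at a time and not between genes, because probe sets differ in how strongly they bind their target.

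The deposited values were already scaled, with a mean of 500.1 on each after trimming 2% from both ends, and their median signals were 221.9, 203.3, 201.8 and 219.2 in tumours 1 to 4. Mammary epithelial markers were present, with 15 of 17 luminal and 11 of 12 basal marker genes expressed. The luminal transcription factors Foxa1 and Esr1 were the luminal exceptions, and Oxtr was the basal one. Of 20 fibroblast and collagen matrix markers 19 were expressed, of 14 macrophage markers 12, of 9 measured adipocyte markers 3 and of 9 skeletal muscle markers 2, so transcripts of both epithelium and stroma were measured. In bulk tissue, fewer cells of a type and less RNA per cell cannot be told apart.

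Of the 10 genes, 3 spanned 2-fold or more from their lowest to their highest tumour. They were Sfrp1, Fzd1 and Wnt1. Such a range was found in 12.4% of the 9403 expressed genes of the array, and a count of 3 in 10 is small enough that it says little about the set as a whole. The median range of the 10 genes was 0.74 log2, against 0.47 log2 over all expressed genes, and the ranges ran from 0.31 log2 for Ctnnb1 to 2.15 log2 for Sfrp1. Of the 15 expressed probe sets 5 had a 2-fold range, against 12.6% of all expressed probe sets that name 1 gene, and 3 of these 5 belong to Sfrp1.

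**Figure D1:**
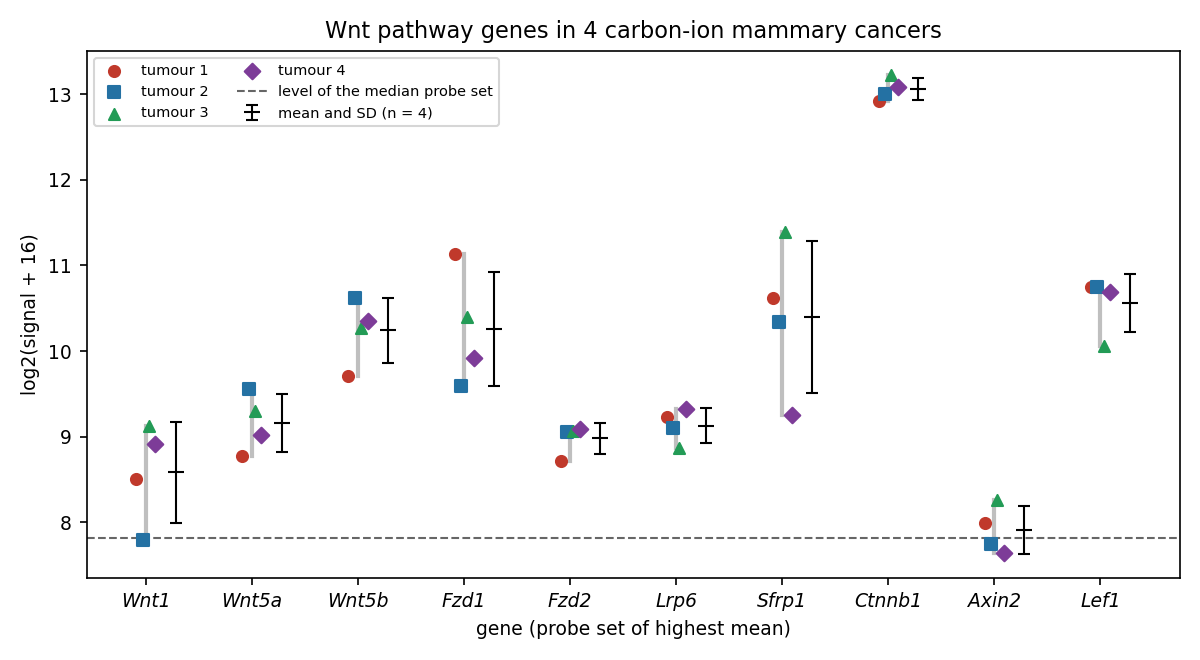
Each of the 10 genes is shown along the horizontal axis by its probe set of highest mean, with log2(signal + 16) on the vertical axis, 1 point per tumour and the mean and SD (n = 4) beside them. Sfrp1 spreads furthest, from 9.25 in tumour 4 to 11.39 in tumour 3, while Ctnnb1 stays between 12.92 and 13.23, and heights are not comparable between genes.

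Sfrp1 differed most between the tumours of all 10 genes, and it was the only gene of the set with a tumour that lay at least 1 log2 from every other tumour. On the brightest of its 3 probe sets it measured 10.62, 10.34, 11.39 and 9.25 log2 in tumours 1 to 4, which are signals of 1560.1, 1279.7, 2673 and 592. Tumour 4 was lowest and tumour 3 highest, 4.52-fold apart in signal. The mean was 10.40 ± 0.89 log2 (SD, n = 4). The range of 2.15 log2 exceeded that of 98.1% of expressed genes, and it was 1.05 log2 without tumour 4 and 1.37 log2 without tumour 3. Of the 9403 expressed genes, 3.81% had a tumour at least 1 log2 above or below each other tumour. Those with tumour 4 at least 1 log2 below each other tumour made up 0.542%.

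The other probe sets of Sfrp1 also placed tumour 4 lowest. The second measured 9.51, 8.41, 9.42 and 7.50 log2, and the third 8.52, 7.79, 8.73 and 6.65 log2 in tumours 1 to 4. The contrast between tumours 3 and 4 was 2.15, 1.92 and 2.08 log2 on the 3 probe sets. Their agreement was poorer at the upper end, where tumour 1 was highest on the second probe set and tumour 3 on the others. Tumours 1 and 3 differed by 0.09 log2 on the second probe set and by 0.21 log2 on the third. Over the array, 213 genes had a second expressed probe set and a 2-fold range on the brightest, and the second named the same lowest tumour in 75.6% of them. The probe sets share the RNA and the array, so their agreement is a check on the probes and not on the tumour.

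Markers of fibroblasts and collagen matrix were also lowest in tumour 4. Of the 19 expressed markers, 16 were lowest in tumour 4, against 25.1% of expressed genes. The median marker lay at -1.43 log2 relative to the other tumours' mean. The summed signal of the 20 measured markers was 85009.8, 69106, 85603 and 35147 in tumours 1 to 4. Their part in the level of Sfrp1 was not tested. The basal markers did not share that order, with a summed signal of 47723, 41569, 30984 and 49550, so tumour 4 was highest and tumour 3 lowest for them.

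**Figure D2:**
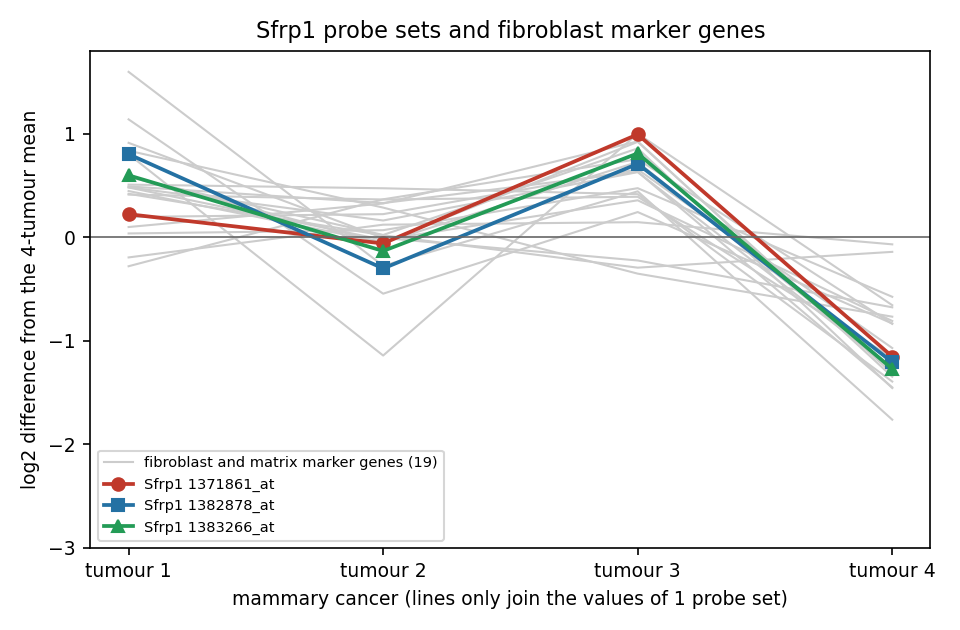
The 3 Sfrp1 probe sets (coloured) and the 19 expressed fibroblast and matrix marker genes (grey) are plotted by tumour as log2 differences from each probe set's own 4-tumour mean. All 3 Sfrp1 probe sets lie more than 1 log2 below their mean in tumour 4, where 16 of the 19 markers also have their lowest value.

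Among 9402 other expressed genes, those whose tumour values lay closest to Sfrp1 after each gene was centred on its own mean were Fn1, Cldn10 and Crabp1. Their root mean square differences from Sfrp1 were 0.14, 0.17 and 0.18 log2 over the 4 tumours. Fn1 encodes fibronectin, a matrix protein that is also in the fibroblast list, and measured 12.31, 11.81, 12.78 and 10.55 log2. Cldn10 encodes a claudin of tight junctions and Crabp1 a retinoic acid binding protein. No other expressed gene lay within 0.2 log2.

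The receptors showed 1 gene that varied and 2 that varied little. Fzd1, a Frizzled receptor, measured 11.13, 9.59, 10.40 and 9.92 log2 in tumours 1 to 4, which are signals of 2224, 756, 1333 and 950.02. Tumour 1 was highest, by 0.73 log2 over tumour 3, and tumour 2 was lowest. The mean was 10.26 ± 0.67 log2 (SD, n = 4), and the range of 1.54 log2 exceeded that of 95.1% of expressed genes. Without tumour 1 the range was 0.80 log2. Fzd1 has 1 probe set, so its values have no second measurement on the array.

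The summed signal of endothelial markers was 4648, 3882, 4887 and 3966 in tumours 1 to 4. Tumour 2 was lowest, as for Fzd1, and tumour 4 was nearly as low. Of 9 expressed markers, 4 had their lowest value in tumour 2, against 17.6% of expressed genes, and 1 (Flt1) had its highest there. Macrophage markers peaked in tumour 1, at 30373 against 14920.3 to 19919.6 summed signal elsewhere. Of 12 expressed markers, 11 were highest there, against 28% of expressed genes. In tumour 3, 10 of the 12 were lowest, against 21.1% of expressed genes. Fibroblast markers were high in tumours 1 and 3, with 8 and 11 of 19 highest there, against 28% and 24.5% of expressed genes. Of the 19, 16 were lowest in tumour 4, against 25.1%. The part of these cell types in the level of Fzd1 was not tested. The genes closest to Fzd1 in pattern were Rasa3, a regulator of Ras, at a root mean square difference of 0.03 log2, Gja5, a gap junction protein, at 0.08 log2, and Vof16 at 0.10 log2. In all, 23 of the other expressed genes lay within 0.2 log2.

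Fzd2, a related receptor, measured 8.71, 9.05, 9.06 and 9.09 log2 in tumours 1 to 4. Tumours 2, 3 and 4 lay within 0.04 log2 of each other, and tumour 1 was 0.34 log2 below the next. Its range of 0.38 log2 was smaller than the median over expressed genes. Lrp6, the co-receptor for signalling through beta-catenin, measured 9.23, 9.10, 8.87 and 9.33 log2, a range of 0.46 log2 that lay close to that median. Fzd1 was highest and Fzd2 lowest in tumour 1, so the receptors did not share an order of the tumours.

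Among the ligands, Wnt1 varied most, and Wnt5a and Wnt5b shared their lowest and highest tumours. Wnt1 measured 8.50, 7.79, 9.12 and 8.92 log2 in tumours 1 to 4. Tumour 2 was lowest, 0.71 log2 below tumour 1, and tumours 3 and 4 differed by 0.21 log2. The mean was 8.58 ± 0.59 log2 (SD, n = 4), and the range of 1.33 log2 exceeded that of 93.0% of expressed genes. The value in tumour 2 was just under the filter level, so the size of the difference is uncertain, and without tumour 2 the range was 0.62 log2.

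Proliferation markers were highest in tumour 2, where Wnt1 was lowest, with a summed signal of 15313 in tumour 2 against 10796 to 11163 elsewhere. Their part in the level of Wnt1 was not tested. The genes closest to Wnt1 in pattern were Sfn, an epithelial member of the 14-3-3 proteins, Tesmin, and Tm4sf1, a membrane protein of the transmembrane 4 superfamily. Their root mean square differences were 0.07, 0.08 and 0.08 log2, and 19 genes lay within 0.2 log2.

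Wnt5a measured 8.77, 9.56, 9.30 and 9.02 log2 in tumours 1 to 4, with a range of 0.78 log2. Wnt5b, its close relative, measured 9.71, 10.62, 10.27 and 10.36 log2, with a range of 0.91 log2. Both ligands were lowest in tumour 1 and highest in tumour 2, and they differed in the order of tumours 3 and 4. Neither reached a 2-fold range on the values as deposited, although Wnt5b did, at 1.03 log2, when the arrays were shifted to a common median. Tumour 1 was the lowest tumour for 36.2% of expressed genes, tumour 2 the highest for 26.4%, and 12.4% had both.

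Luminal epithelial markers were lowest in tumour 1 too. Their summed signal was 41343 in tumour 1, against 71557 to 81136 elsewhere. Of 15 expressed markers, 13 had their lowest value there, against 36.2% of expressed genes. Their part in the levels of Wnt5a and Wnt5b was not tested.

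**Figure D3:**
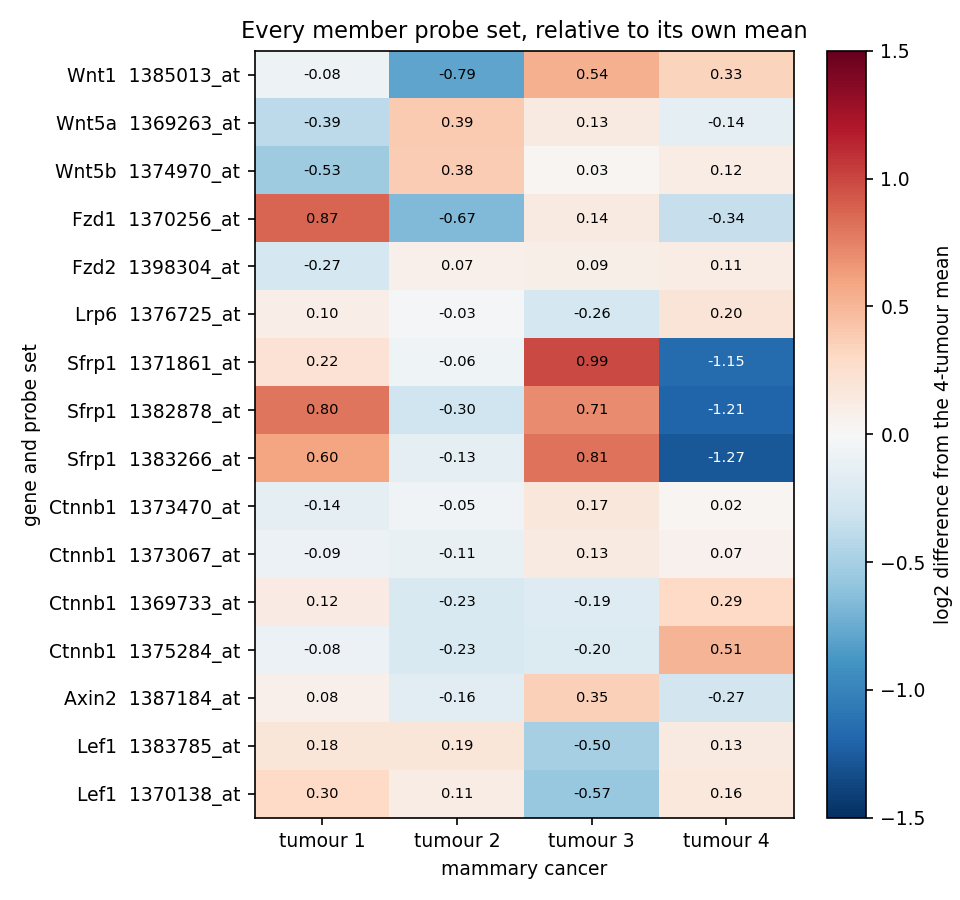
Rows are the 16 probe sets, columns the 4 tumours, and each cell gives the log2 difference from that probe set's 4-tumour mean, in red above and in blue below it. The 3 rows of Sfrp1 share the low value of tumour 4 (-1.15, -1.21 and -1.27) and both rows of Lef1 that of tumour 3 (-0.50 and -0.57), whereas the rows of Ctnnb1 differ in their highest tumour.

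Ctnnb1, which encodes beta-catenin, was the steadiest of the 10 genes when each was read by its brightest probe set. Its brightest probe set measured 12.92, 13.00, 13.23 and 13.08 log2 in tumours 1 to 4, a range of 0.31 log2 that exceeded that of only 25.4% of expressed genes. Signals this bright can lose contrast on arrays. The next probe set measured 11.82, 11.81, 12.04 and 11.98 log2, and the third 11.79, 11.44, 11.48 and 11.96 log2. The brighter 2 had tumour 3 highest, whereas the third had tumour 4 highest. None of the 3 expressed probe sets spanned more than 0.52 log2. That was the range of the third, and it was wider than those of Fzd2 (0.38 log2) and Lrp6 (0.46 log2). The dimmest probe set lay below the filter level, at 5.66, 5.52, 5.54 and 6.26 log2, and was the only one of the 16 that did not pass. These values concern the transcript, while the pathway acts on the stability of the protein, which the arrays do not measure.

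The targets Axin2 and Lef1 took opposite positions in tumour 3, where Axin2 was highest and Lef1 lowest. Axin2, a scaffold of the complex that breaks down beta-catenin and a widely used readout of the pathway, measured 7.99, 7.75, 8.26 and 7.64 log2 in tumours 1 to 4. Its signals were 238, 199, 291 and 183, close to the filter level, and tumours 2 and 4 were under it. The range was 0.63 log2 with a mean of 7.91 ± 0.28 log2 (SD, n = 4). Such dim values leave the order of the tumours uncertain.

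Lef1, a transcription factor that binds DNA together with beta-catenin and is itself a target of the pathway, measured 10.74, 10.75, 10.06 and 10.69 log2 in tumours 1 to 4. Tumours 1, 2 and 4 lay within 0.06 log2 of each other and tumour 3 was 0.63 log2 below the next. Its second probe set measured 8.95, 8.76, 8.09 and 8.81 log2, so tumour 3 was lowest on both. The contrast between tumours 2 and 3 was 0.69 log2 on the brighter probe set and 0.67 log2 on the other. Neither probe set reached a 2-fold range.

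Basal epithelial, macrophage and lymphoid markers were also lowest in tumour 3. Of the expressed markers, 8 of 11 basal, 10 of 12 macrophage and 4 of 4 lymphoid genes had their lowest value there. The share over all expressed genes was 21.1%. The summed signal of the lymphoid list was 1249 in tumour 3 against 2164 to 4359 elsewhere, and that of the macrophage list 14920.3 against 19222 to 30373. Only 4 of the 10 measured lymphoid genes were expressed. Jchain alone ran from 6.68 log2 in tumour 3 to 10.94 log2 in tumour 1, so it weighs heavily in the lymphoid sum. Lymphoid cells are in general a site of Lef1 expression, but bulk values do not assign Lef1 to a cell type. The log2 ratio of 3' to 5' signal of the beta-actin control, a measure of RNA integrity, was 0.48 in tumour 3 against 0.30 in each of the others, and that of the Gapdh control was -0.02 against 0.01 to 0.04. The part of these cell types and of RNA integrity in the level of Lef1 was not tested.

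The promoter windows of these 2 targets are shown because both genes are read as output of beta-catenin and their tumour orders differed. RefSeq sequences of build GRCr8 were found for 6 of the 10 genes, each covering 250 bases before to 50 bases after the annotated start. The letters TCAAAG, a core of the site bound by Lef1 and Tcf7 proteins, were searched on both strands (TCAAAG or CTTTGA) and are in capitals. The Axin2 window lies at chr10:94398535-94398834 on the plus strand and the Lef1 window at chr2:222340463-222340762 on the plus strand.

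Axin2: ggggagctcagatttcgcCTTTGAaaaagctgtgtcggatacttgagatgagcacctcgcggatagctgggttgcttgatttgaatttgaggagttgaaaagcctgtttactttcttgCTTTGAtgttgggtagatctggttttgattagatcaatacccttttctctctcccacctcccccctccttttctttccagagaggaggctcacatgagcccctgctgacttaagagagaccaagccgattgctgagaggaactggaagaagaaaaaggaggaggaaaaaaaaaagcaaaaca
Lef1: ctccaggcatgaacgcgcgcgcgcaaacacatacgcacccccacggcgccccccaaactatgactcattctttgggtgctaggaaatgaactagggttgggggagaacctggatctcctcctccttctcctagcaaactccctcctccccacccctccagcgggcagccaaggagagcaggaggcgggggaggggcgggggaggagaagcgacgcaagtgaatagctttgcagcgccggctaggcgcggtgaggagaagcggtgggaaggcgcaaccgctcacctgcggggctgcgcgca

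The Axin2 window held 2 matches, both as CTTTGA, beginning 232 and 132 bases before the annotated start. The Lef1 window held none, and neither did those of Wnt1, Wnt5a, Fzd1 and Ctnnb1. Over all 33469 windows of this length, 16.1% held at least 1 match and 1.85% at least 2. A match is a stretch of letters and not a measured binding site, and a window without one says nothing about binding outside it.

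No tumour had all 10 genes high or all low. In tumour 3, 8 of the 10 genes lay above the mean of the other tumours, where 54.4% of expressed genes did, with a median difference of 0.18 log2 against 0.03 log2 over all expressed genes. In tumours 1, 2 and 4 the numbers above were 5, 4 and 6. Tumour 3 was highest for 4 genes (Wnt1, Sfrp1, Ctnnb1 and Axin2), against 24.5% of expressed genes, and lowest for Lef1 and Lrp6, against 21.1%. Tumour 1 was lowest for Wnt5a, Wnt5b, Fzd2 and Ctnnb1, against 36.2% of expressed genes, and highest for Fzd1. The counts for tumour 3 include Axin2, which did not pass the filter when that tumour was left out. They also include Ctnnb1, read by its brightest probe set, at 0.23 log2 relative to the other tumours' mean. Its next probe set lay at 0.18 log2 in tumour 3, but its dimmest expressed probe set at -0.26 log2. After quantile normalization, tumour 3 minus tumour 1 was -0.02 log2 for Ctnnb1. The counts over 10 genes are a description and single out no tumour. Over the whole array tumours 2 and 3 were the closest pair, at a root mean square difference of 0.38 log2 between expressed genes, yet over the 10 genes they lay 0.67 log2 apart, with Sfrp1 and Wnt1 at least 2-fold different. Without Sfrp1 the distance between tumours 2 and 3 was 0.62 log2. Tumours 3 and 4 were furthest apart over the 10 genes, at 0.77 log2, and at 0.39 log2 without Sfrp1.

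A wider list of Wnt pathway genes was read alongside the 10. Of 106 further genes 82 were named on the array and 54 of them passed the filter. Of these 54, 11 (20.4%) had a 2-fold range, against the 12.4% of all expressed genes, and their median range was 0.64 log2. The counts are described below by role, with some genes standing in more than 1 role. The 12.4% is the share to set beside each of them.

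Extracellular inhibitors other than Sfrp1 also differed between the tumours. Of 4 further expressed inhibitors, 3 had a 2-fold range, against 12.4% of all expressed genes, with a median range of 1.19 log2. With 4 genes the count does not describe inhibitors as a group. Sfrp2, a relative of Sfrp1, measured 11.83, 11.82, 10.04 and 12.00 log2 in tumours 1 to 4, so it was lowest in tumour 3, where Sfrp1 was highest. Its second probe set, at 10.95, 10.61, 8.87 and 11.05 log2, also placed tumour 3 lowest. Frzb, another secreted Frizzled-related protein, measured 9.11, 9.31, 8.68 and 7.99 log2 and shared with Sfrp1 the low value of tumour 4. Its second probe set, at 9.02, 8.80, 8.32 and 8.19 log2, also placed tumour 4 lowest but did not reach a 2-fold range. Dkk3, of the Dickkopf family, was at 9.79 log2 in tumour 2 against 10.73 to 10.84 log2 elsewhere, and its other probe sets were under the filter level. Kremen1, a receptor for Dickkopf proteins, spanned 0.34 log2. The inhibitors that varied had their lowest value in different tumours, with tumour 4 for Sfrp1 and Frzb, tumour 3 for Sfrp2 and tumour 2 for Dkk3.

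Among further ligands, Wnt9a was the only 1 of 3 expressed genes with a 2-fold range, at 8.87, 7.90, 8.27 and 9.74 log2 in tumours 1 to 4. Wnt6 spanned 0.69 log2 and Wnt2b 0.27 log2. No further receptor of 5 reached a 2-fold range. The pseudokinase Ptk7 spanned 0.75 log2, Fzd6 0.46 log2, the Wnt receptor Ryk 0.35 log2 and Fzd4 0.30 log2. Wls, which carries Wnt ligands to the cell surface, spanned 0.18 log2, and Porcn, the enzyme that attaches their lipid, 0.80 log2. In the R-spondin axis, which controls receptor turnover, Lgr6 spanned 0.90 log2, Znrf3 0.73 log2 and Lgr4 0.21 log2.

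In the cytoplasmic group, 2 of 15 further expressed genes (13.3%) had a 2-fold range, close to the 12.4% of all expressed genes. Nkd2, an inhibitor that binds Dishevelled, measured 10.68, 8.84, 9.62 and 8.56 log2 and, like Fzd1, was highest in tumour 1. Dact3, another Dishevelled-binding protein, was at 7.60 log2 in tumour 4 against 8.59 to 8.82 log2 elsewhere. Btrc, which marks beta-catenin for breakdown, spanned 0.82 log2 on its brightest probe set, where tumour 4 was lowest. Its other probe sets spanned 0.90 and 1.07 log2, the last a 2-fold range, and had tumour 1 lowest. Frat2 spanned 0.64 log2. The group as a whole had a median range of 0.42 log2, below the 0.47 log2 of all expressed genes.

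Of 13 further expressed nuclear components, 1 had a 2-fold range, and their median range was 0.58 log2, above that of all expressed genes. The co-repressor gene Tle2 measured 8.67, 9.67, 10.05 and 9.38 log2 in tumours 1 to 4, and Tle1 ran the other way at 9.85, 9.21, 8.85 and 9.34 log2. Tumour 1 had the lowest Tle2 and the highest Tle1, and tumour 3 the reverse. Tcf7, a factor of the same family as Lef1, was highest in tumour 1 at 9.36 log2 against 8.40 to 8.71 log2. Ctnnbip1, an inhibitor of beta-catenin, spanned 0.80 log2 on its brightest probe set and 0.38 log2 on the next, with tumour 1 lowest on both.

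Genes listed as pathway targets did not share an order of the tumours. Of 11 further expressed targets, 4 had a 2-fold range, against 12.4% of all expressed genes. Mmp7, a matrix metalloproteinase, measured 8.87, 6.27, 8.49 and 9.60 log2, with tumour 2 under the filter level and lowest. Cd44, a hyaluronan receptor, was highest in tumour 1 at 10.43 log2 against 8.78 to 9.34 log2, and its second probe set at 10.18 against 8.62 to 9.10 log2. Ephb3, a receptor tyrosine kinase, was also highest in tumour 1, at 9.49 against 8.05 to 8.36 log2. Vegfa, an angiogenic growth factor, was highest in tumour 4 at 11.69 against 10.45 to 10.77 log2. Axin2 was highest in tumour 3, Cd44, Ephb3 and Tcf7 in tumour 1, and Mmp7 and Vegfa in tumour 4. Many of these genes answer to other pathways as well.

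**Figure D4:**
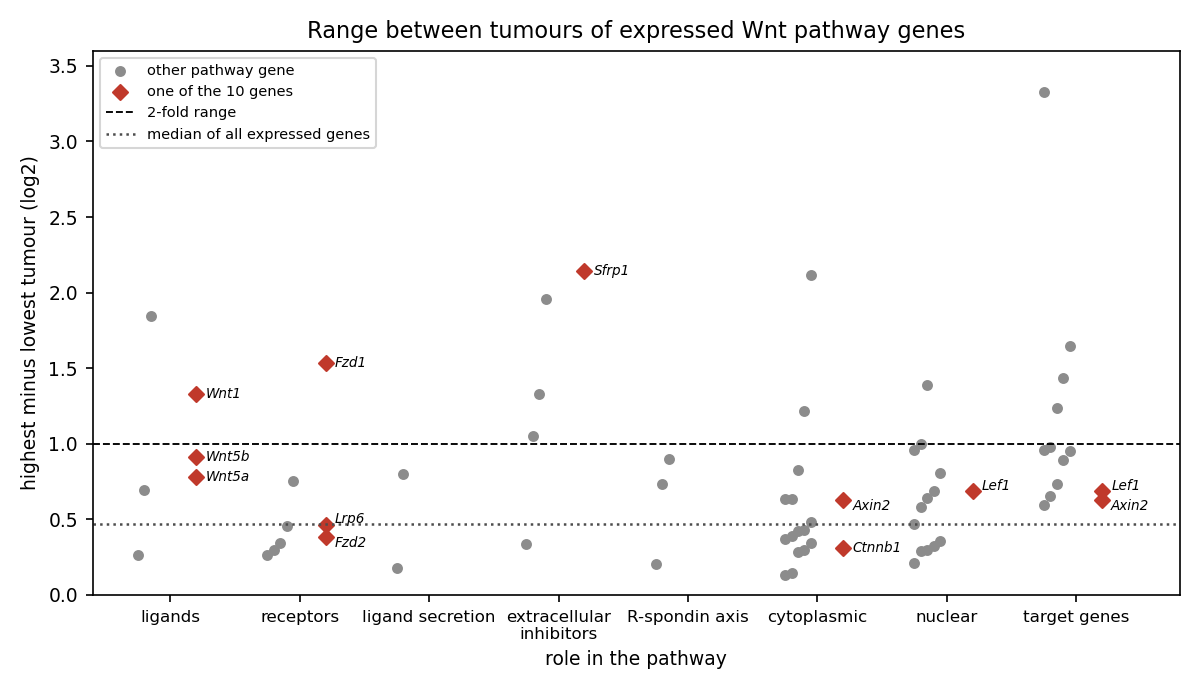
Each point is an expressed Wnt pathway gene, placed by its role on the horizontal axis, with the highest minus the lowest tumour in log2 on the vertical axis, the 10 genes as red diamonds and the others in grey. Sfrp1 (2.15), Fzd1 (1.54) and Wnt1 (1.33) lie above the dashed 2-fold line, and the dotted line marks the median of all expressed genes at 0.47.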

How the data were processed

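Total RNA of 4 mammary cancers was labelled with biotin from an oligo-dT primer, per the labels' protocols, which favours the 3' end of transcripts. The deposited values are intensity on a linear scale for 31099 probe sets and 4 arrays, and the authors had scaled them, since the trimmed means are equal. The software and any background correction used were not given in the sources used here. Values were transformed as log2(value + 16) without further scaling. A probe table of the platform annotation named 1 gene for 20826 probe sets; 436 that named several were left out, and 9780 besides control probe sets were unnamed. RefSeq assembly GRCr8 held the gene identifiers of 20758 of these, and 0 symbols changed.

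Genes were kept at a mean of at least 7.81 log2, the median of all probe-set means, which left 9403 of 14217. Ranges, tumours standing at least 1 log2 apart, and root mean square differences between centred profiles were computed with Python 3.11.15, numpy 2.4.6 and pandas 2.3.3. Simulated data with planted changes served only to check the code that finds tumours standing apart. That run says nothing about the noise of these arrays. No test between groups was possible with 1 group and 1 array per tumour, and precision is limited by the number of arrays. Named genes were all 10 members, the up to 4 genes of largest range in each role list, genes standing apart, and the 3 nearest in pattern to each member with a 2-fold range. The members, lists and rules were chosen with earlier results of these data known. Alternatives were the pseudocount, the scaling, the filter, the summary of probe sets and the leaving out of each tumour.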

Additional observations from a re-analysis of the deposited data

Results flagged for a closer look

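A tumour far from the other 3 was looked for with Dixon's ratio, the gap to the nearest tumour divided by the whole range against its 95% critical value for 4 samples. Chance alone passes this in about 1 of 20 groups, and 5.81% of all expressed probe sets passed it. Among the 16 member probe sets it was passed by Fzd2, lowest in tumour 1 with a ratio of 0.892 over a range of 0.38 log2, and by the brighter probe set of Lef1, lowest in tumour 3 with a ratio of 0.917 over a range of 0.69 log2. Among the genes of the wider list named above, it was passed by Dkk3, lowest in tumour 2 with a ratio of 0.893, and by Sfrp2, lowest in tumour 3 with a ratio of 0.906. The 3' to 5' ratio of the beta-actin control was highest in tumour 3 with a Dixon ratio of 0.985, at 0.48 log2 against 0.30 log2 in each of the others. The summed signal of the proliferation markers was highest in tumour 2 with a ratio of 0.919. Sfrp1, Fzd1 and Wnt1, which had the widest ranges, did not pass it on any probe set.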

How the results depend on the processing

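No paired analysis was possible because all 4 tumours belong to 1 group. Under 7 other settings (pseudocounts 1 and 64, arrays shifted to a common median, quantile normalization, all probe sets of a gene averaged, no filter, a stricter filter at the 75th percentile), the contrast between each gene's highest and lowest tumour could change direction only with the scaling or, for genes with several probe sets, the averaging, and 22 of these 23 values kept it. The exception was Ctnnb1, tumour 3 minus tumour 1, at -0.02 log2 after quantile normalization, and it was 0.02 log2 with probe sets averaged. The number of the 10 genes with a 2-fold range was 3, but 4 after the median shift, which added Wnt5b, and 2 with the stricter filter, which kept 5 genes. The stricter filter left 2 member probe sets with such a range, against 5, and 5 of 35 wider genes, against 11 of 54. Without a filter the count was 24 of 82 wider genes. The share of all genes with such a range was 8.97% with the stricter filter and 21.1% without one, against 12.4% in the main setting.

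Leaving out each tumour in turn gave 2 to 3 genes and 3 to 4 member probe sets with a 2-fold range, the 3 without tumour 1. Wider genes with such a range numbered 8 to 10. Over all expressed genes the share was 5.75% without tumour 1 and 9.46% to 10.2% without tumour 2, 3 or 4. The median range of the member genes lay between 0.58 and 0.78 log2, against 0.32 to 0.40 log2 over all expressed genes. Ranges that shrank by over 1.5 times were those of Sfrp1, to 1.05 log2 without tumour 4 and 1.37 log2 without tumour 3; of Fzd1, Wnt5b and Fzd2, to 0.80, 0.35 and 0.04 log2 without tumour 1; of Wnt1, to 0.62 log2 without tumour 2; and of Lef1, Lrp6 and Ctnnb1, to 0.06, 0.23 and 0.16 log2 without tumour 3. Axin2 did not pass the filter without tumour 3. The number of genes standing 2-fold apart lay between 0 and 1 for tumours 1, 2 and 3 and was 1 throughout for tumour 4. Dim signal limits Axin2 and Wnt1 most.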

Other observations

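Some pathway genes lay under the filter by their mean and yet reached its level in 1 tumour. Of 28 genes of the wider list under the filter, 3 had a range of at least 4-fold and 1 tumour at or above the filter level, and these 3 were picked after their values were seen. Wif1, a secreted inhibitor of Wnt ligands, measured 9.00 log2 in tumour 3 against 6.34 to 7.04 log2 elsewhere. Lgr5, an R-spondin receptor and stem cell marker in gut and mammary gland, measured 8.17 log2 in tumour 2 against 5.70 to 6.81 log2 elsewhere. Ccn5, a matricellular protein also known as Wisp2, measured 8.22 log2 in tumour 1 against 5.76 to 6.86 log2 elsewhere. Wif1, Lgr5 and Ccn5 each have 1 probe set, and the low values are too dim to give the size of the differences.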
